A study of Arabidopsis thaliana with 9 samples.

Results

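BZIP60 (AT1G42990) and CRT1b (AT1G09210) are genes of the endoplasmic reticulum stress response, and both were chosen by name. Earlier results of these data were known when these members were chosen, so their calls and ranks among all genes only describe them. Each was read from the brightest probe set of its gene that the array's annotation gave to a single gene, and both members were found among 13356 genes with such a probe set. Each of them had only 1 such probe set. The arrays were Affymetrix ATH1 arrays of the Arabidopsis thaliana suspension cell line T87, which the labels call wild type, grown at 22 °C in the light. There were 9 arrays in 3 groups of 3, described by the study as independent biological replicates. Intact cells came from cultures that were 4 days old. Osmotic cells were cells of that age kept for 3 h in medium with 0.4 M mannitol, with the wall in place. Protoplasts were cells of that age whose wall was digested for 1.5 h by cellulase Onozuka RS (1%) together with pectolyase Y-23 (0.5%), in mannitol at 0.35 M, before 3 washes and 3 h in medium with 0.4 M mannitol. All groups came from the same wild-type cell line, so no allele or transgene differs between them, and no mock-treated intact cells are described.

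The endoplasmic reticulum is where secreted and membrane proteins fold. When unfolded proteins build up there, plant cells start the unfolded protein response. The uncut BZIP60 mRNA of Arabidopsis encodes a protein anchored in the membrane. Under stress the membrane kinase and ribonuclease IRE1 removes a short stretch from the BZIP60 mRNA, and the protein made from the cut mRNA enters the nucleus and raises genes for chaperones and for the disposal of misfolded proteins. A parallel branch uses BZIP28 and BZIP17, transcription factors held in the membrane until the Golgi proteases S1P and S2P cut them free. Calreticulins such as CRT1b are calcium-binding chaperones of the lumen that hold newly made glycoproteins until they are folded, and genes of lumenal chaperones are known targets of the response. The deposited table gives 1 intensity per probe set, so cut and uncut BZIP60 mRNA were not told apart here.

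Median intensities over all probe sets other than controls lay between 152 and 156 in intact arrays, 145 and 162 in osmotic arrays and 115 and 130 in protoplast arrays. A gene was called where its adjusted p in limma, a linear model fitted over all genes, was under 0.05. On the log2 scale the median change over all genes was 0.01 in mannitol, -0.10 in protoplasts against intact cells and -0.14 in protoplasts against osmotic cells. Of the called genes in protoplasts against intact cells, 64.9% were lower as deposited and 51.1% after centring each array on its median, but 72.7% after centring on the hybridisation controls. Against osmotic cells the shares were 66.0%, 48.5% and 75.7%. The labels name no defining markers of T87 cells. Of 14 markers of root hairs, xylem, epidermis and guard cells, 4 were measured, EXPA7, EXPA18, GUT2 and FAMA, and none of these marks the epidermis. Their summed intensity ran from 144 to 197 in intact, 114 to 157 in osmotic and 148 to 180 in protoplast arrays, and none of them passed in any comparison in the limma fit. Most of the sum was the xylem marker GUT2, with group means of 109, 93.6 and 102. The next brightest, EXPA18, had 33.8, 23.7 and 27.2. All 4 photosynthesis markers, LHCB4.2, LHCB4.3, PSAN and PSAE-1, fell in protoplasts against intact cells, where 29.2% of all genes were called lower. Their log2 changes ran from -2.96 for PSAN to -0.99 for LHCB4.2 (limma adjusted p = 1.6e-05 and 0.0178). In mannitol their changes lay between 0.08 for PSAN and 0.82 for LHCB4.2, and none of them passed in the limma fit. In protoplasts they fell as CRT1b did, and their part in its fall was not tested.

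BZIP60 rose in mannitol and stood higher still in protoplasts. Its intensity was 637, 519 and 502 in the intact arrays. It was 2198, 2049 and 2144 in the osmotic arrays. In the protoplast arrays it was 9668, 8996 and 7952. The groups did not overlap, and the ranges stood in the order intact, osmotic, protoplast with wide gaps between them. Group means were 552 ± 73.9, 2130.5 ± 75.6 and 8872 ± 865 (SD, n = 3). In bulk samples, fewer cells of a type and less RNA per cell cannot be told apart, and the same holds for more of either.

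**Figure D1:**
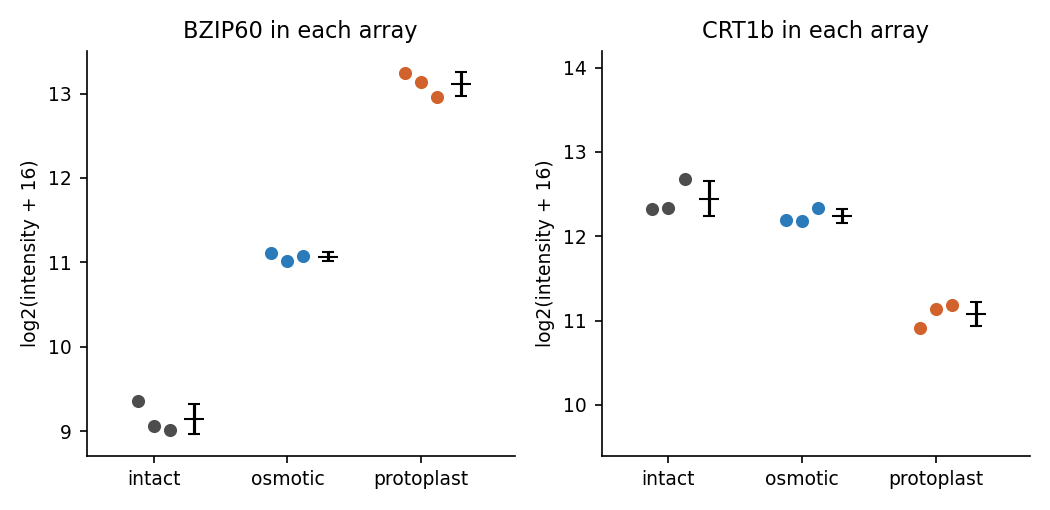
Intensity of BZIP60 (left) and CRT1b (right) as log2(intensity + 16) in each of the 9 arrays, by group. Points are arrays in replicate order and the bar beside them is the mean ± SD of 3 arrays. Both panels span the same number of log2 units. BZIP60 stood higher in each successive group, while CRT1b was lower in protoplasts and its intact and osmotic arrays overlapped.

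CRT1b was lower in protoplasts. Its intensity was 5092, 5159 and 6562 in the intact arrays. It was 4670.1, 4639.9 and 5137 in the osmotic arrays. In the protoplast arrays it was 1915, 2231 and 2322. The brightest osmotic array lay above the dimmest intact array, so those groups overlapped, while every protoplast array lay below all 6 walled arrays. Group means were 5604 ± 830.0, 4816 ± 278 and 2156 ± 214 (SD, n = 3), so the protoplast mean was 38.5% of the intact mean.

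Setting osmotic against intact cells asks how walled cells responded to mannitol medium. The effects of mannitol, of new medium and of the time spent in it cannot be told apart. On the log2(intensity + 16) scale BZIP60 rose by 1.92 ± 0.17 (SE, limma adjusted p = 4.4e-04), with a 95% interval from 1.55 to 2.30, and the ratio of mean intensities was 3.86. All osmotic arrays lay above all intact arrays, as they did for 14.7% of genes, while 16.2% had all of them below. CRT1b did not pass, at -0.21 ± 0.17 (SE, limma adjusted p = 0.541), with a 95% interval from -0.60 to 0.18. Thus 1 of the 2 members was called, where 7.33% of all genes were called, 3.58% higher and 3.75% lower. In the order of changes from the largest rise, BZIP60 was number 156 of 13356, so 1.17% of genes rose at least as far.

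The comparison of protoplasts with intact cells takes digestion, washing and mannitol medium together. BZIP60 rose by 3.97 ± 0.17 (SE, limma adjusted p = 5.1e-07), with an interval from 3.60 to 4.34 and a ratio of mean intensities of 16.1. CRT1b fell, at -1.37 ± 0.17 (SE, limma adjusted p = 1.5e-04), with an interval from -1.75 to -0.98. Both members were called, in opposite directions, where 15.8% of all genes were called higher and 29.2% lower (45.0% in all). Arrays of the groups did not overlap for either member, as for 19.6% of genes that were higher and 33.0% that were lower. At least as large a rise as that of BZIP60 was seen for 1.93% of genes, and at least as large a fall as that of CRT1b for 13.6%. Relative to the median change of all genes, the changes were 4.07 for BZIP60 and -1.26 for CRT1b.

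**Figure D2:**
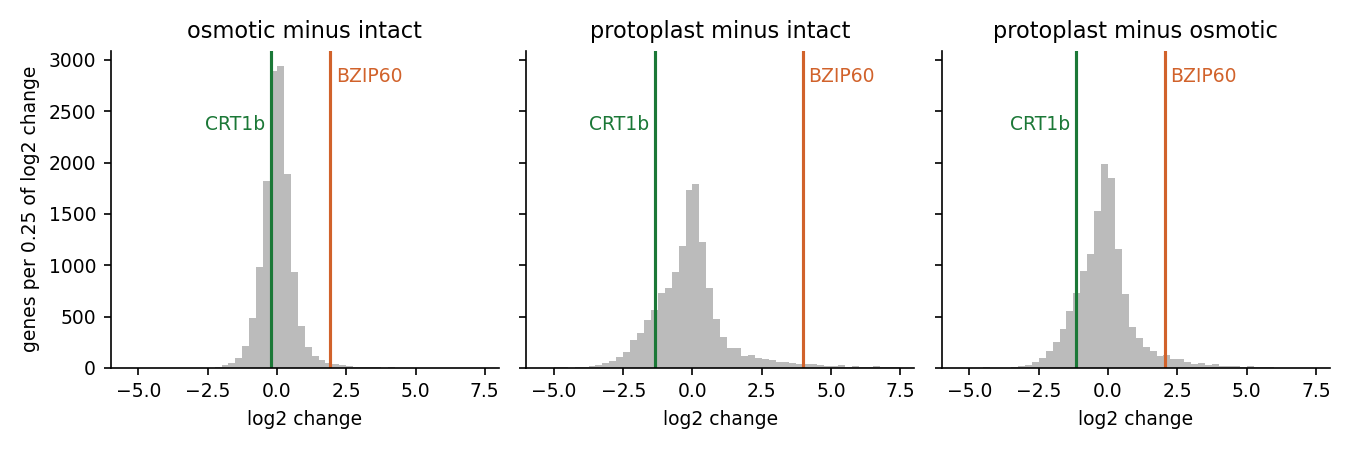
Histograms of the log2 changes of all 13356 genes in the 3 comparisons (x axis, log2 change; y axis, genes per bin), with vertical lines at BZIP60 and CRT1b. BZIP60 lay in the upper tail in each comparison, at 1.92, 3.97 and 2.05. CRT1b lay near the middle in mannitol, at -0.21, and on the lower side in both comparisons of protoplasts, at -1.37 and -1.16.

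Protoplasts and osmotic cells had spent the same time in the final mannitol medium, so the steps before it were what differed. These were the digestion and the washes. The digestion was itself done in mannitol, so protoplasts had spent longer in mannitol than osmotic cells. Loss of the wall, the enzymes, the washes, the longer handling and the longer time in mannitol cannot be told apart in this comparison. BZIP60 was higher in protoplasts by 2.05 ± 0.17 (SE, limma adjusted p = 3.5e-05), with an interval from 1.67 to 2.42 and a ratio of mean intensities of 4.16. CRT1b was lower, at -1.16 ± 0.17 (SE, limma adjusted p = 6.4e-04), with an interval from -1.54 to -0.77. Both members were called, where 13.3% of all genes were called higher and 25.7% lower (39.0% in all). Their arrays did not overlap between the groups, as for 16.9% of genes that were higher and 30.7% that were lower. Relative to the median change of all genes, the changes were 2.18 and -1.02. The osmotic arrays enter this comparison and that in mannitol, so the changes of BZIP60 in them, 1.92 and 2.05, are not independent of each other.

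A scaling factor of an array nearly cancels in the difference between both genes on that array. The difference log2 BZIP60 less log2 CRT1b has no meaningful 0, since probe sets differ in brightness, but its change between groups can be read. It was -2.97, -3.27 and -3.67 in the intact arrays. It was -1.08, -1.17 and -1.25 in the osmotic arrays. In the protoplast arrays it lay between 1.77 and 2.33. No group overlapped another. The change of BZIP60 exceeded that of CRT1b by 2.13 in mannitol, by 5.34 in protoplasts against intact cells and by 3.20 in protoplasts against osmotic cells. Each gave p = 0.1 in a two-sided exact permutation test, the smallest p that 3 against 3 arrays can give.

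Both members' calls and non-calls held under each of 23 alternatives in every comparison. BZIP60 ranged from 1.84 to 2.04 in mannitol, from 3.73 to 4.299 in protoplasts against intact cells and from 1.79 to 2.38 against osmotic cells under other settings. CRT1b ranged from -0.22 to -0.14, from -1.61 to -1.04 and from -1.41 to -0.82. Without 1 array, the ranges were 1.86 to 2.03, 3.91 to 4.07 and 1.98 to 2.12 for BZIP60, and -0.27 to -0.09, -1.43 to -1.25 and -1.21 to -1.07 for CRT1b.

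**Figure D3:**
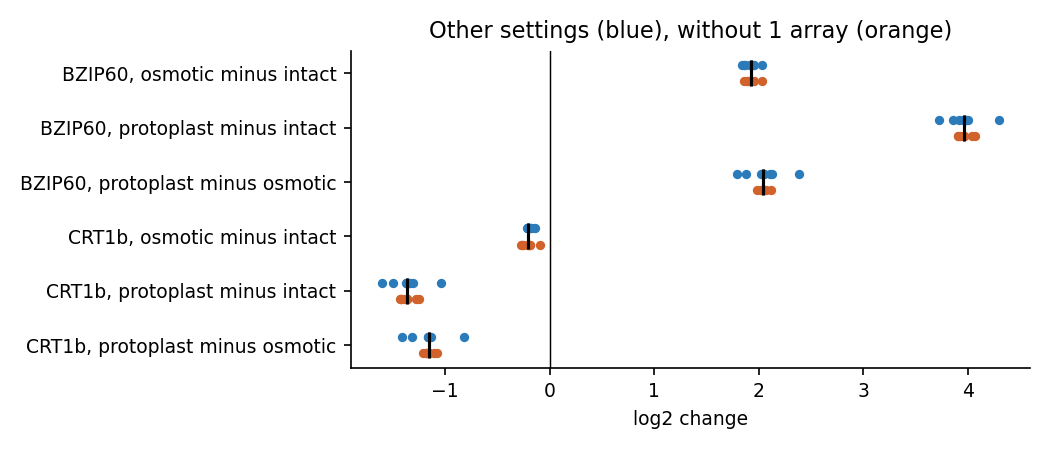
Log2 change (x axis) of BZIP60 and CRT1b in each comparison (rows). The black mark is the value as reported, blue points are other settings and orange points leave out 1 array. No value crossed 0, and CRT1b in mannitol stayed nearest to it, with its highest value at -0.09.

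The other factors of the response went in different directions. Of 101 genes written down for the endoplasmic reticulum and for heat shock, 26 had a one-gene probe set and 14 of those, both members included, were named by the annotation used here. Genes such as IRE1A, BIP1, BIP2, BIP3, CNX1, CRT1a, CRT3 and the protein disulfide isomerases of the PDIL family were not analysed here. Over the 12 named genes other than the members, 1 rose and 1 fell in mannitol, 3 rose and 4 fell in protoplasts against intact cells, and 1 rose and 2 fell in protoplasts against osmotic cells. That makes 2, 7 and 3 of 12 called, where 7.33%, 45.0% and 39.0% of all genes were. Their median changes were 0.47, 0.22 and -0.29, beside 0.01, -0.10 and -0.14 over all genes. The other 12 measured loci carried a locus code only, and 2 of them, AT1G53540 and AT5G37670, were from the heat shock list. Of the 12, 1 rose and none fell in mannitol (limma adjusted p under 0.05), 4 rose and 4 fell in protoplasts against intact cells, and 2 rose and 3 fell against osmotic cells, beside the same shares of all genes (7.33%, 45.0% and 39.0%). The 1 that rose in mannitol was AT1G53540 of the heat shock list, with osmotic arrays at 1525, 1649 and 13010.

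Among the sensors, BZIP28 was higher in protoplasts, as BZIP60 was. Its intensity was 582, 614 and 571 in intact, 856, 892 and 1148 in osmotic and 2985, 2956.5 and 2298 in protoplast arrays. The groups did not overlap and stood in the same order as those of BZIP60. It rose by 2.18 ± 0.18 in protoplasts against intact cells (SE, limma adjusted p = 1.5e-05) and by 1.50 ± 0.18 against osmotic cells (limma adjusted p = 2.4e-04). In mannitol it missed the threshold, at 0.69 ± 0.18 (limma adjusted p = 0.0549). It passed there under 6 of 23 alternatives, among them quantile normalization (limma adjusted p = 0.0409) and leaving out protoplast replicate 3 (limma adjusted p = 0.033).

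BZIP17 and the protease gene S1P had lower intensities in protoplasts. BZIP17 was at 467, 565 and 620 in intact, 458, 450 and 345 in osmotic and 317, 254 and 356 in protoplast arrays. Its change in protoplasts against intact cells was -0.80 ± 0.20 (limma adjusted p = 0.0084), and the call ended when arrays were centred on their medians (limma adjusted p = 0.0646). In mannitol it had -0.39 ± 0.20 and against osmotic cells -0.42 ± 0.20, neither of which passed (limma adjusted p = 0.302 and 0.136). The latter passed with replicates 1 and 2 alone at -0.65 and with array weights at -0.59 (limma adjusted p = 0.0301 and 0.0184), and was as small as -0.09 with median centring (limma adjusted p = 0.761). S1P went from 529, 355 and 441 in intact to 315, 335 and 270.5 in osmotic and 111, 109 and 135 in protoplast arrays. It fell in protoplasts, with -1.76 ± 0.19 against intact cells (limma adjusted p = 6.8e-05) and -1.26 ± 0.19 against osmotic cells (limma adjusted p = 7.2e-04), while in mannitol it missed the threshold at -0.49 ± 0.19 (limma adjusted p = 0.166). With BZIP60, 2 of the 4 named sensors and factors were called higher and 2 lower in protoplasts against intact cells, where 15.8% and 29.2% of all genes were.

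Of the 5 named chaperone and co-chaperone genes, CRT1b and ATERDJ2A were called lower in protoplasts against intact cells and none higher, where 29.2% and 15.8% of all genes were. The locus AT5G07340 of the same list carried a code only and was called lower too, at -2.45 (limma adjusted p = 5.0e-05). ATERDJ2A encodes a membrane J-protein that works at the protein import channel. It was at 1046, 1102 and 1297 in intact, 691, 686 and 631 in osmotic and 533, 497 and 617 in protoplast arrays. It fell in protoplasts by 1.04 on the log2 scale (limma adjusted p = 6.1e-04). In mannitol its change was -0.76 ± 0.17 (limma adjusted p = 0.026), and this call ended without any 1 of the 6 arrays of those groups, with limma adjusted p between 0.0587 without osmotic replicate 3 and 0.0898 without intact replicate 3. It also ended with centring on hybridisation controls (limma adjusted p = 0.0645). Its paralogue ATERDJ2B had mean intensities of 310 ± 80.7, 339 ± 60.9 and 273 ± 51.0 (SD, n = 3) and passed in no comparison. ATERDJ3B, a lumenal co-chaperone of the BiP chaperones, had 2291 ± 288, 2210.1 ± 183 and 2791 ± 96.2 and passed in none either as deposited. With median centring it was called higher in protoplasts, its change moving from 0.29 to 0.62 against intact cells and from 0.34 to 0.68 against osmotic cells (limma adjusted p = 0.015 and 0.0121).

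The small heat shock protein gene ATHSP22.0, whose product lies in the endoplasmic reticulum, had the widest spread between replicates of the 14 named genes. It was at 49.8, 38.2 and 77.9 in intact, 297, 355 and 6224 in osmotic and 116, 121 and 2076 in protoplast arrays. The third array was the brightest in each group. This was not particular to ATHSP22.0. The third osmotic and protoplast arrays were also the brightest of their groups for AT1G53540, at 13010 and 7530, and for AT5G37670, at 3583 and 1610. For ATHSP22.0 the changes of 3.69 ± 1.27 in mannitol, 2.27 ± 1.27 in protoplasts against intact cells and -1.42 ± 1.27 against osmotic cells missed the threshold (limma adjusted p = 0.119, 0.189 and 0.439). With the replicate number as a block, the first and second passed (limma adjusted p = 0.023 and 0.0303). With replicates 1 and 2 alone they were 2.51, 1.17 and -1.34, and all passed (limma adjusted p = 0.0024, 0.00245 and 0.00183).

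**Figure D4:**
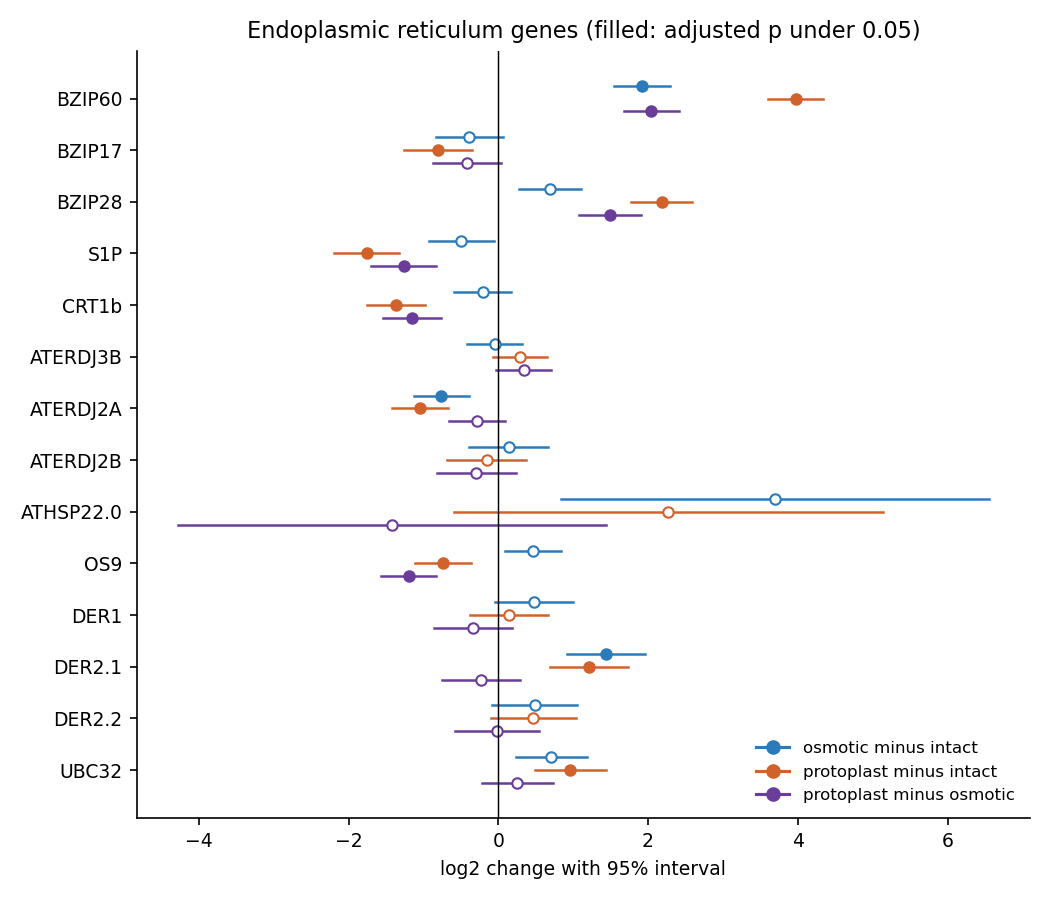
Log2 changes (points) with 95% intervals (lines) of the 14 named endoplasmic reticulum genes in the 3 comparisons, from 1 limma fit of 9 arrays. Filled points had a limma adjusted p under 0.05. Against intact cells BZIP60, BZIP28, DER2.1 and UBC32 rose in protoplasts, BZIP17, S1P, CRT1b, ATERDJ2A and OS9 fell, and ATHSP22.0 had the widest intervals.

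Genes for the disposal of misfolded proteins also went both ways. Of the 5 named, DER2.1 rose in mannitol, and DER2.1 and UBC32 rose and OS9 fell in protoplasts against intact cells. OS9 was also lower in protoplasts than in osmotic cells. That makes 1, 3 and 1 of 5 called, where 7.33%, 45.0% and 39.0% of all genes were. DER2.1 encodes a derlin, a membrane protein of the export channel. It was at 539, 713 and 400 in intact, 1262, 1774 and 1456 in osmotic and 1380, 1195 and 1217 in protoplast arrays. Both treated groups lay above all intact arrays, and they overlapped each other. It rose by 1.44 ± 0.23 in mannitol (limma adjusted p = 0.00721) and by 1.21 ± 0.23 in protoplasts (limma adjusted p = 0.00187). UBC32, a ubiquitin-conjugating enzyme gene of this pathway, went from 469, 422 and 423 to 895, 746 and 569 in osmotic and 823, 744 and 1057 in protoplast arrays, a rise of 0.96 ± 0.21 in protoplasts (limma adjusted p = 0.00429). In mannitol it missed the threshold at 0.71 ± 0.21 (limma adjusted p = 0.078) and passed under 6 of 23 alternatives, with the lowest limma adjusted p, 0.0101, under array weights. Against osmotic cells its change of 0.25 ± 0.21 (limma adjusted p = 0.404) became 0.59 and passed with median centring (limma adjusted p = 0.0327), and changed sign under other settings. OS9, which recognises glycans of misfolded proteins, was at 673, 614 and 524 in intact, 844, 828 and 824 in osmotic and 343, 399 and 322 in protoplast arrays. Its change was -0.74 ± 0.17 against intact cells (limma adjusted p = 0.00478) and -1.20 ± 0.17 against osmotic cells (limma adjusted p = 4.4e-04), and the first of these calls ended when arrays were centred on their medians (limma adjusted p = 0.0771). In mannitol it missed the threshold at 0.46 ± 0.17 (limma adjusted p = 0.133) and passed with a pseudocount of 64 (limma adjusted p = 0.0454). The derlin genes DER1 and DER2.2 passed in no comparison as deposited. DER2.2 in protoplasts against intact cells moved from 0.47 to 0.79 and passed with median centring (limma adjusted p = 0.0332), and DER1 against osmotic cells moved from -0.34 to -0.59 and passed with centring on hybridisation controls (limma adjusted p = 0.0398). DER1 was read from the brighter of 2 probe sets.

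BZIP60 belongs to a large family of transcription factors with a basic region and a leucine zipper, of which 14 were measured under a BZIP symbol. Of the other 13, 1 rose and 3 fell in mannitol, 2 rose and 4 fell in protoplasts against intact cells, and 2 rose and 1 fell against osmotic cells. That makes 4, 6 and 3 of 13 called, where 7.33%, 45.0% and 39.0% of all genes were. Their median changes were -0.07, -0.05 and -0.32. BZIP53, a factor of the response to low energy, also rose in protoplasts, by 1.75 ± 0.21 (limma adjusted p = 1.0e-04), but was lower in mannitol, with -0.93 ± 0.21 (limma adjusted p = 0.0278). Its mannitol call ended without any 1 of the 6 arrays of those groups, with limma adjusted p between 0.0598 without osmotic replicate 3 and 0.0987 without osmotic replicate 2. It also ended with centring on hybridisation controls (limma adjusted p = 0.0557). It was at 1152, 1232 and 1446 in intact, 696, 639 and 644 in osmotic and 5042, 4939 and 3239 in protoplast arrays.

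**Figure D5:**
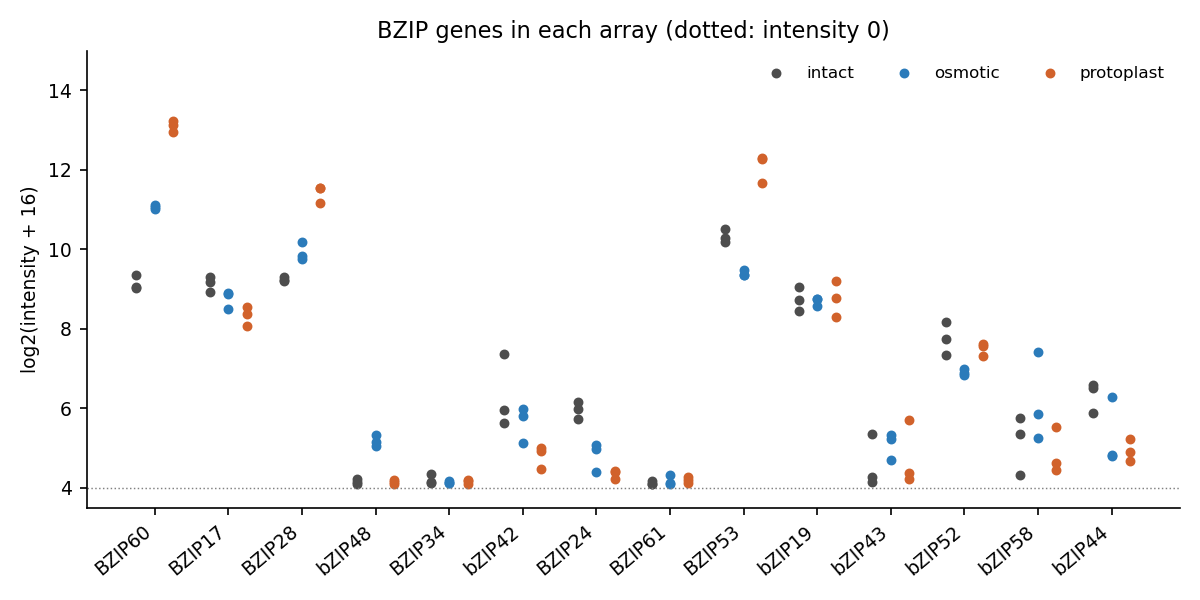
Intensity as log2(intensity + 16) of the 14 genes with a BZIP symbol in each array, coloured by group, with 3 points per group. The dotted line is an intensity of 0. BZIP60, BZIP28 and BZIP53 were the genes called higher in protoplasts, and BZIP34 and BZIP61 lay near the dotted line in every array.

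Among the dimmer family members, BZIP24, a factor known from salt stress, went from a mean of 46.6 in intact to 12.7 in osmotic and 4.33 in protoplast arrays and fell in both (limma adjusted p = 0.0157 in mannitol and 2.3e-04 in protoplasts). Its mannitol call ended without intact replicate 1 (limma adjusted p = 0.0667) and without intact replicate 2 (limma adjusted p = 0.0579). Its mannitol change moved from -0.53 with a pseudocount of 64 to -1.95 with a pseudocount of 1. The symbol bZIP48 stood at 1.79, 20.2 and 1.73, and was called higher in mannitol (limma adjusted p = 0.00522) at intensities that could not be set against a background, and lower in protoplasts than in osmotic cells (limma adjusted p = 6.2e-04). In mannitol bZIP52 fell, with -0.85 ± 0.22 (limma adjusted p = 0.049), a call that ended when any 1 of 7 arrays was left out, all but intact replicate 3 and protoplast replicate 3, with limma adjusted p from 0.0653 without protoplast replicate 2 to 0.145 without intact replicate 1. It held under 8 of 23 alternatives in all, and among those with all arrays the highest limma adjusted p was 0.0825, with centring on hybridisation controls. With the replicate block it was 0.0584. In protoplasts against intact cells bZIP42 and bZIP44 fell, with -1.52 ± 0.43 and -1.39 ± 0.39 (limma adjusted p = 0.0154 and 0.016). The call of bZIP42 ended without protoplast replicate 3 (limma adjusted p = 0.0538), and that of bZIP44 without intact replicate 1, intact replicate 3 or protoplast replicate 3 (limma adjusted p = 0.0543, 0.0559 and 0.0531). Without intact replicate 3 the change of bZIP42 was -0.99. Between pseudocounts of 64 and 1 it ran from -0.79 to -2.33 for bZIP42, from -0.71 to -2.09 for bZIP44 and, in mannitol, from 0.35 to 2.95 for bZIP48. BZIP34, BZIP61, bZIP19, bZIP43 and bZIP58 passed in no comparison, and bZIP19, a factor of the response to zinc deficiency, had mean intensities of 417, 397 and 433.

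The patterns most like those of the members were found by the distance between log2 profiles over the 9 arrays, each centred on its own mean. Among 1556 genes with a symbol other than a locus code, those nearest to BZIP60 were ATSIK, the autophagy gene ATG8E, the glutathione transferase gene GSTU22, the NADH dehydrogenase gene NDB2 and the kinase gene PTI1-4, at distances of 1.06, 1.11, 1.22, 1.26 and 1.27 log2 units. Pearson's r with BZIP60 was 0.988, 0.991, 0.973, 0.986 and 0.989. All of these genes rose in both mannitol and protoplasts, with changes between 1.52 for PTI1-4 and 2.51 for ATG8E in mannitol, and between 3.07 for PTI1-4 and 4.65 for NDB2 in protoplasts. The nearest of 11799 locus-code genes was AT5G48540, at a distance of 0.56 with r = 0.995.

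The genes nearest to CRT1b were the serine carboxypeptidase-like gene SCPL49, AN, the alpha-tubulin gene TUA6, ZCW7 and another serine carboxypeptidase-like gene, scpl29, at distances of 0.26, 0.38, 0.39, 0.41 and 0.41. Pearson's r was 0.990, 0.981, 0.977, 0.992 and 0.993. None of these 5 genes passed in mannitol in the limma fit, with changes between -0.44 for TUA6 and -0.06 for AN, and all fell in protoplasts, with changes between -1.60 for ZCW7 and -1.35 for AN. The nearest locus-code gene was AT2G04845, at a distance of 0.25 with r = 0.995. These likenesses describe 9 arrays that share their groups, and they carry no test.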

How the data were processed

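RNA was measured on 9 Affymetrix ATH1 arrays. Per the labels' protocols, biotin-labelled cRNA was made from 750 ng of total RNA with a kit that primes at the 3-prime end. The authors deposited 1 linear intensity for every probe set of an array. The values show that each array was scaled to a trimmed mean of 500, leaving out the top and bottom 2%. How probes were summarised was not given in the sources used here. Without detection calls, background levels are unknown.

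Besides 64 controls the array has 22746 probe sets, of which the annotation gave 13513 a single gene symbol, 503 several and 8730 none. Of 13356 genes, 146 had more than 1 such probe set and were read from the brightest. Loci of 13286 genes were matched in a table of the assembly TAIR10.1. The scale was log2(intensity + 16), on which changes of dim genes are understated. All 9 arrays entered 1 model in limma 3.58.1 (R 4.3.3), adjusted by Benjamini-Hochberg over all genes within each comparison, with calls at an adjusted p under 0.05. Names, distances and figures used Python 3.11.15. The model was checked on simulated arrays with independent noise, so the check does not cover deviations that arrays share. The number of arrays limits the precision. Same-numbered arrays deviated together from their group means, with every pair's Pearson's r over 0.1 between intact and osmotic arrays (0.101, 0.177 and 0.310) and between osmotic and protoplast arrays (0.190, 0.122 and 0.322). Between intact and protoplast arrays r was 0.107, 0.0212 and 0.145. Pairs of other numbers ran from -0.247 to 0.152. The highest, intact replicate 2 with osmotic replicate 1, lay above the 0.101 of intact and osmotic replicate 1. Numbers 1 and 2 were thus not clearly set apart. The replicate block rests on these correlations, as the labels name no shared culture or day.

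The members and gene lists were chosen with earlier results of these data known. The named genes are all list members and BZIP genes that the annotation names. Loci with a code alone were counted without a role, apart from those given with their list. The 5 most alike genes with symbols and 1 with a locus code were named per member. Alternatives were a replicate block, the groups compared alone, quantile, median and hybridisation-control scaling, pseudocounts of 1 and 64, a filter on the dimmest 40% of genes, averaging a gene's probe sets, using every probe set, a trended variance prior, array weights, an adjusted p under 0.01, replicates 1 and 2 alone, and leaving out each array.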

Additional observations from a re-analysis of the deposited data

How the results depend on the processing

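The 6 changes of the members kept their direction and their side of the threshold under all 23 alternatives run for each. The 3 differences between members kept their direction under 15. Several alternatives could not move a change itself, as each member had 1 probe set and the groups were of equal size. These were the replicate block, the groups compared alone, the filter on dim genes and both other uses of probe sets. The trended variance prior, the stricter threshold and leaving out an array of the group not compared could not move it either. How many of all genes were called moved more. In mannitol, 979 genes became 514 with a pseudocount of 1, 2382 with array weights, 286 at an adjusted p under 0.01, 1472 with replicates 1 and 2 alone and 1836 with every probe set. Leaving out 1 array gave between 360 without osmotic replicate 2 and 1330. It gave 422, 443 and 498 without intact replicate 1, 2 or 3 and 501 without osmotic replicate 1. With every probe set, 22746 probe sets were tested in place of 13356 genes, so these counts are not of like totals. The calls were then 10910 in place of 6010 in protoplasts against intact cells and 9565 in place of 5207 against osmotic cells. The cause of these moves was not tested. Of 22 called values of other named genes none changed sign and 8 lost their call under at least 1 alternative. Of 14 of their values that did not pass and are given, 12 gained a call under at least 1 alternative, and UBC32 in protoplasts against osmotic cells changed sign, to -0.00248 with centring on hybridisation controls and to -0.0602 with replicates 1 and 2 alone. Of 33 others that did not pass, 20 changed sign and 6, all of BZIP genes, gained a call.

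The best correlated array of another group had the same number in 12 of 18 cases. The replicate block cannot move the changes of the members, as each group holds every replicate number once, but it can move their p. With it, limma adjusted p in mannitol was 0.00167 for BZIP60 and 0.472 for CRT1b. The block changed no call of a named gene other than those of ATHSP22.0 and bZIP52. The paired permutation of the difference between members cannot give a p under 0.25. Dim genes such as bZIP48 are limited by background, which the deposited values do not give.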
